A study of Homo sapiens with 6 samples.

Results

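The genes described here are 10 components of Notch signalling, picked by name from the 31016 genes of the deposited expression table: the receptors NOTCH1, NOTCH2 and NOTCH3, the ligands JAG1, JAG2 and DLL1, the glycosyltransferase LFNG, the DNA-binding factor RBPJ, and the target genes HES1 and HEY1. All 10 were found in the table, each once. They were measured by poly(A) RNA sequencing in DLD-1 cells, an established human colorectal adenocarcinoma line. There were 3 libraries of cells treated with both TGF-β and TFA (TGF-β + TFA 1 to 3 here) and 3 of cells treated with TGF-β alone (TGF-β 1 to 3). TFA stands for total flavones of Abelmoschus manihot, a flavonoid extract of a plant of the mallow family. The labels list 24, 25 and 26 hours of treatment for the libraries numbered 1, 2 and 3 in both groups, while the description of the series gives 24 hours for TGF-β and then TFA. Both groups carry TGF-β, and cells without it were not analysed here, so the comparison of TGF-β + TFA with TGF-β concerns TFA on a TGF-β background and not TGF-β itself. Neither the dose of TFA nor whether the libraries came from separate cultures is given in the sources used here, so p-values measure the spread between these libraries, which may be technical.

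Notch is a receptor that works between touching cells. A ligand of the Jagged or Delta family on a neighbouring cell pulls on the receptor, ADAM proteases and then the gamma-secretase complex cut it, and the freed intracellular domain enters the nucleus and joins RBPJ on DNA, where it turns a repressed gene on. Genes of the HES and HEY families are the classic targets and encode repressors. In the gut epithelium Notch activity keeps progenitors dividing and steers them towards absorptive cells, in large part because HES1 represses ATOH1, the factor of the secretory lineage. RNA levels of receptors and ligands do not measure how much receptor is cut, so the target genes are the closest readout in these data.

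The HES1 and RBPJ promoter windows are printed because HES1 was the member whose FPKM values separated the groups, and because these were the member promoters with more than 1 match to the core of the RBPJ site. RefSeq (GRCh38.p14) gave promoter windows of 250 bases before to 50 bases after a transcription start for 8 members, NOTCH1, NOTCH2, NOTCH3, JAG1, JAG2, LFNG, RBPJ and HES1, 13 windows in all. The letters TGGGAA, the core of the RBPJ site, were searched on both strands, where the other strand reads TTCCCA, and matches are in capitals.
HES1, chr3:194135898-194136197, plus strand: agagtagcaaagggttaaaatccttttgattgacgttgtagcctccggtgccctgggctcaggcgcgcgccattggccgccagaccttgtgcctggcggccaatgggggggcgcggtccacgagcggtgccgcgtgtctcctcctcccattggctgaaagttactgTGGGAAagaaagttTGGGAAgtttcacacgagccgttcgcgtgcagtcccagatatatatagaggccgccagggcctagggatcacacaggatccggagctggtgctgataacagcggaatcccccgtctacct
RBPJ, chr4:26319496-26319795, plus strand: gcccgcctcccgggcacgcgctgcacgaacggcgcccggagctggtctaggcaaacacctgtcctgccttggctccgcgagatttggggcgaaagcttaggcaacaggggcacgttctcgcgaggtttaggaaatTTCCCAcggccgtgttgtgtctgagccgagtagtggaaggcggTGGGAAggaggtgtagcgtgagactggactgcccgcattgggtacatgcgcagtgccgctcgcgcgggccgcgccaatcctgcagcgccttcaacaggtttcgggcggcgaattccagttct
In the HES1 window both matches lie on the plus strand and begin 84 and 70 bases before the start. In the printed RBPJ window the matches lie on opposite strands and begin 115 and 72 bases before its start. RBPJ had 5 windows in all, and none of the others held a match. LFNG, with 1 match in each of its windows, was the only other member with a match. Of all 35116 windows, 24.03% held at least 1 match and 3.8% held 2 or more. These letters are short and common, so a match describes the sequence and does not show a bound site.

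Depth was 60361756 to 68745953 estimated counts per library, in which a fragment probably adds about 4 counts. Per library, 1032 to 1271 genes had a count of exactly 4, while 601 to 685 genes had 3 and 345 to 396 had 5. Of the epithelial markers, 11 of 12 had counts, with summed levels of 1438 to 1600 FPKM in the TGF-β + TFA libraries and 1549 to 1843 FPKM in the TGF-β libraries, led by KRT18, KRT8 and EPCAM. VIL1 and GPA33, markers of intestinal epithelium, were near 0 (at most 0.302 and 0.128 FPKM in any library), while CDX2 and KRT20 were present. Fibroblast and pericyte markers stood at trace level, at summed levels of 2.09 to 3.57 FPKM in the TGF-β + TFA libraries and 1.18 to 1.48 FPKM in the TGF-β libraries. All 12 of that list had a count somewhere, DCN, LUM and COL3A1 were at 0 in all TGF-β libraries, and all 10 tested rows (RGS5 has 2 rows in the table) had fitted values above 0. MCAM, THY1 and COL1A2 were at 0 in TGF-β 1 and COL6A3 in TGF-β 2. The filter on low counts needs 3 libraries, so such rows could be tested only with the help of TGF-β + TFA libraries. The shared direction of the tested rows therefore carries no weight. Endothelial markers (9 of 10 with counts, CDH5 at 0 in all but TGF-β + TFA 3) summed to 2.04 to 2.39 FPKM in the TGF-β + TFA libraries and 1.55 to 1.99 FPKM in the TGF-β libraries, with EGFL7 the highest. Haematopoietic markers (4 of 8 with counts) summed to at most 0.544 FPKM. In bulk RNA, fewer cells of a type and less RNA per cell cannot be told apart.

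Library TGF-β + TFA 3 stood apart by transcript length, and 6 of the 9 tested Notch genes have long transcripts, of 6397 or more exon bases. Against the mean of TGF-β + TFA 1 and 2, the 1807 shortest genes by exon length lay at a median of 0.23 on the log2 CPM scale in TGF-β + TFA 3, and the 1806 longest lay at -0.46. On the same measure NOTCH2 (16807 exon bases) lay at -1.05, RBPJ (9253 bases) at -0.87, JAG1 (9298 bases) at -0.53, NOTCH3 (9394 bases) at -0.50, NOTCH1 (10377 bases) at -0.44 and JAG2 (6397 bases) at -0.34. The short members were on the other side of 0, with DLL1 (3226 bases) at 0.33, HES1 (2062 bases) at 0.30 and LFNG (3418 bases) at 0.15. NOTCH2 and RBPJ lay further below 0 than the median of all genes of like length, and the other long members lay nearer to that median. Weaker trends ran through the other libraries. Against the mean of all 6 libraries, the shortest and longest genes lay at medians of 0.17 and -0.33 in TGF-β + TFA 3. TGF-β 2 ran the same way, at 0.04 and -0.16. TGF-β 3 (-0.07 and 0.18) and TGF-β + TFA 1 (-0.09 and 0.17) ran the opposite way. For the members, values without TGF-β + TFA 3 or from a fit that removes each library's trend along length are given where they differ most. That fit takes the length of a gene from the deposited counts and FPKM and not from exon bases.

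**Figure D1:**
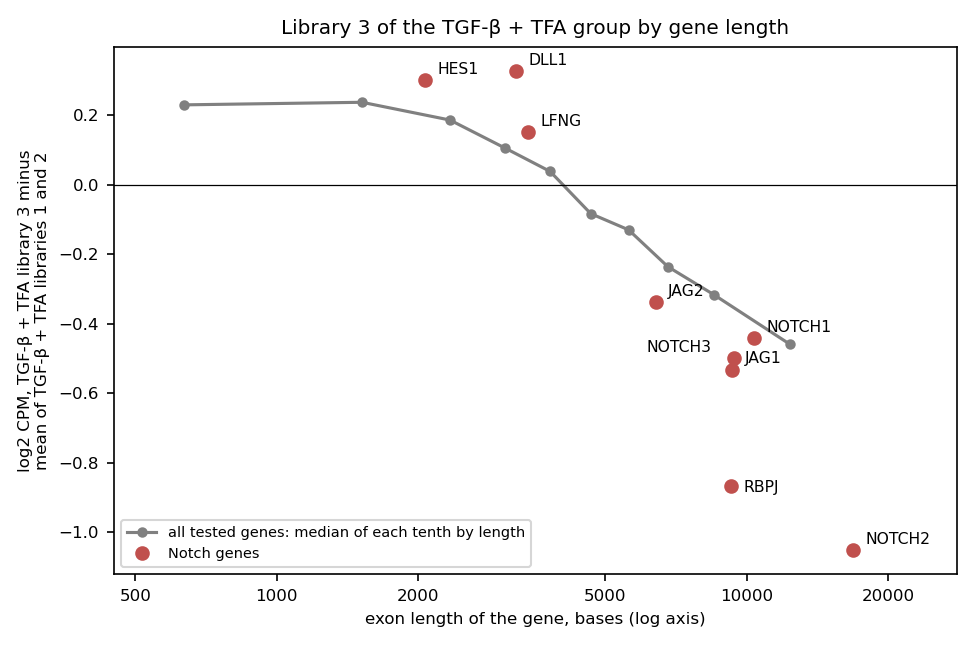
Difference in log2 CPM between TGF-β + TFA 3 and the mean of TGF-β + TFA 1 and 2 (y axis) by exon length in bases (x axis, log scale), for the 9 tested Notch genes (red) and as the median of each of 10 equal groups of all tested genes by length (grey). The 6 Notch genes of 6397 bases or more lie below 0, from -0.34 to -1.05, and the 3 shorter ones lie above 0.

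The members ranged from abundant to almost undetected on the FPKM scale, which corrects for transcript length. RBPJ (median of 10.7 FPKM over the 6 libraries), HES1 (9.13 FPKM) and JAG1 (6.59 FPKM) led. JAG2 (1.496 FPKM) and NOTCH2 (1.42 FPKM) followed, and LFNG (0.604 FPKM), NOTCH3 (0.306 FPKM), NOTCH1 (0.176 FPKM), DLL1 (0.133 FPKM) and HEY1 (0 FPKM) were scarce. RBPJ was above HES1 in 4 of 6 libraries, JAG2 above NOTCH2 in 4 of 6 and NOTCH1 above DLL1 in 4 of 6, so these neighbours did not differ beyond their spread. The ranges of HES1 and JAG1, of JAG1 and JAG2, and of DLL1 and HEY1 did not overlap. LFNG lay below NOTCH2, NOTCH3 below LFNG and NOTCH1 below NOTCH3 in 6 of 6 libraries each, although their ranges over all libraries overlapped.

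**Figure D2:**
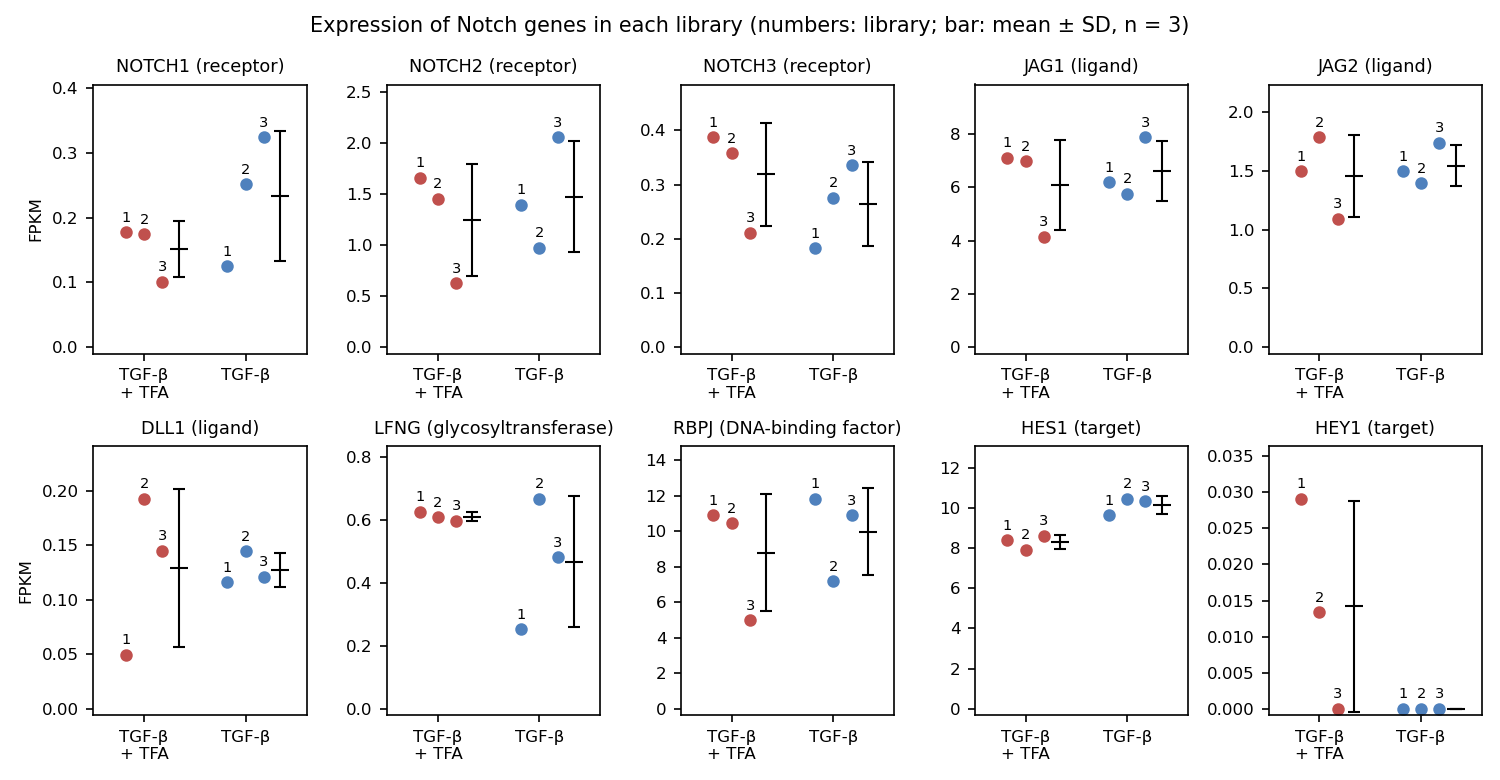
Level of each of the 10 Notch genes in FPKM (y axis, linear and separate for each gene) in the 3 TGF-β + TFA libraries (red, left) and the 3 TGF-β libraries (blue, right). Points are libraries with their numbers, and bars are the mean ± SD. For HES1 all red points, at 7.91 to 8.62 FPKM, lie below all blue points, at 9.64 to 10.5 FPKM, while for the other genes with reads in both groups the points overlap.

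TFA was compared with no TFA on the TGF-β background over all genes, and no Notch member passed the test. Of the 9 members tested, 0 were called by the edgeR quasi-likelihood test at a Benjamini-Hochberg adjusted p under 0.05, where 0.0109% of all 18265 tested genes were called (2 genes, both higher). None of the 9 had an unadjusted p under 0.05 either, against 1.83% of all tested genes, and DESeq2 called 0 members, against 0.0702% of the 21354 genes to which it gave an adjusted p. Fitted values were above 0 for 3 members and below 0 for 6. Their median log2 fold change was -0.11, beside 0.01 over all genes tested, and without TGF-β + TFA 3 it was 0.05. In CPM (counts scaled to library size with TMM factors), the 3 TGF-β + TFA libraries lay wholly on one side of the 3 TGF-β libraries for 0 of 9 members, beside 7.91% of all tested genes (4.58% higher and 3.33% lower). HEY1 did not pass the filter on low counts.

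HES1, the repressor that is the best-known Notch target in gut epithelium (ENSG00000114315, GRCh38 chromosome 3, 194136148 to 194138732, plus strand), was the member that differed most evenly between libraries. Its level was 8.38, 7.91 and 8.62 FPKM in TGF-β + TFA 1 to 3, against 9.64, 10.5 and 10.3 FPKM in TGF-β 1 to 3. Every TGF-β + TFA library lay below every TGF-β library in FPKM, with means of 8.30 ± 0.359 and 10.1 ± 0.443 FPKM (SD, n = 3 each). Among the 6 members with a mean of at least 0.5 FPKM, HES1 was the 1 whose groups did not overlap in FPKM, beside 6.9% of the 12470 genes at that level, or 3.62% counting lower ones alone.

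On the TMM scale the separation of HES1 was incomplete. Its level was 18.6, 17.5 and 22.4 CPM in TGF-β + TFA 1 to 3, against 21.9, 24.4 and 23.3 CPM in TGF-β 1 to 3. TGF-β + TFA 3, the library with the strongest length trend and a TMM factor of 0.895, lay above TGF-β 1. HES1 did not pass the edgeR quasi-likelihood test, with -0.25 as its log2 fold change (SE 0.14; 95% interval -0.58 to 0.08; adjusted p = 0.9997). With the length trend removed the values were 19.9, 18.4 and 19.3 CPM in the TGF-β + TFA libraries against 22.9, 23.4 and 24.2 CPM in the TGF-β libraries, which do not overlap. In that fit the groups did not overlap for 8.61% of all tested genes. That fit gave -0.29 (interval -0.54 to -0.04), and the fit without TGF-β + TFA 3 gave -0.36 (interval -0.65 to -0.07). Unadjusted p-values were 0.119, 0.0277 and 0.0220 in these 3 edgeR fits, and the adjusted p stayed at 0.999 or above in each.

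HEY1, the other target gene listed (ENSG00000164683, chromosome 8, 79762371 to 79767857, minus strand), was at the edge of detection. It had 11, 6 and 0 estimated counts in TGF-β + TFA 1 to 3 and 0 in each of the 3 TGF-β libraries. The 17 counts correspond to about 4.25 fragments if each adds 4. A count of 0 allows up to 12 estimated counts per library, the equivalent of 3 fragments, and no library exceeded that, so no fold is given and a difference was not detectable at this depth. HEY1 entered only the alternatives without the filter (edgeR with no filter and DESeq2), and neither called it.

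RBPJ, which binds the target genes and acts as a repressor or activator depending on its partners (ENSG00000168214, chromosome 4, 26163455 to 26435131, plus strand), was the most abundant member by median. Its level was 10.9, 10.5 and 4.99 FPKM in TGF-β + TFA 1 to 3, against 11.8, 7.20 and 10.9 FPKM in TGF-β 1 to 3. The lowest libraries were TGF-β + TFA 3 and TGF-β 2, and the remaining libraries of both groups lay within 10.5 to 11.8 FPKM. RBPJ was at -0.18 in log2 fold change (SE 0.27; interval -0.82 to 0.46) and at -0.16 with the length trend removed (interval -0.57 to 0.26), and without TGF-β + TFA 3 it was 0.06 (interval -0.40 to 0.51), so its direction rested on that library.

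Among the receptors, NOTCH2 carried most of the RNA (ENSG00000134250, chromosome 1, 119911553 to 120069662, minus strand). Its share of the summed FPKM of NOTCH1, NOTCH2 and NOTCH3 was 74.6%, 73.2% and 66.8% in TGF-β + TFA 1 to 3, against 82.0%, 64.9% and 75.7% in TGF-β 1 to 3. Its level was 1.66, 1.45 and 0.629 FPKM in the TGF-β + TFA libraries against 1.39, 0.974 and 2.06 FPKM in the TGF-β libraries. The groups overlapped, with the lowest value in TGF-β + TFA 3 and the highest in TGF-β 3. NOTCH2 had a fitted log2 fold change of -0.24 (SE 0.35; interval -1.05 to 0.58). It was -0.22 with the length trend removed (interval -0.68 to 0.25), 0.04 without TGF-β + TFA 3 (interval -0.60 to 0.68) and 0.03 without TGF-β 3, so its direction rested on single libraries.

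NOTCH2 has near-identical partial copies, the NOTCH2NL genes, so its reads are less certain than those of the other receptors. In the GENCODE 29 transcripts, 14.2% of all stretches of 150 bases (the read length) in NOTCH2 also occur in another gene, above all NBPF19 and NOTCH2NLA, and the same was true of 0% for NOTCH1 and NOTCH3. NOTCH2NLB, NOTCH2NLC and NOTCH2NLR, which the deposited table holds, were not among the genes matched there, so the share for NOTCH2 may be too low. NOTCH2NLA was at 0.964, 0.982 and 1.33 FPKM in the TGF-β + TFA libraries against 1.06, 1.03 and 1.20 FPKM in the TGF-β libraries. NOTCH2NLB differed between libraries of the same group, at 0.532, 1.08 and 0.134 FPKM in TGF-β + TFA 1 to 3 against 0.935, 1.22 and 0.130 FPKM in TGF-β 1 to 3. NOTCH2NLC had 0.245, 0.0716 and 0.126 FPKM in TGF-β + TFA 1 to 3 against 0.415, 0.542 and 0.111 FPKM in TGF-β 1 to 3, which overlap, and it had the lowest p of these relatives (log2 fold change -1.25, SE 0.64, edgeR unadjusted p = 0.0877, adjusted p = 0.9997). NOTCH2NLR was at 0 in TGF-β + TFA 1 and 2 and at 0.489 FPKM in TGF-β + TFA 3, against 0.0108, 0.331 and 0.429 FPKM in TGF-β 1 to 3. Summing NOTCH2 with NOTCH2NLA, NOTCH2NLB, NOTCH2NLC and NOTCH2NLR, an alternative chosen after seeing the data, gave -0.26 as the log2 fold change (SE 0.26).

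NOTCH1, the receptor best known for its role in intestinal progenitors (ENSG00000148400, chromosome 9, 136494433 to 136546048, minus strand), was scarce in these cells. Its level was 0.178, 0.174 and 0.101 FPKM in TGF-β + TFA 1 to 3, against 0.125, 0.251 and 0.325 FPKM in TGF-β 1 to 3, on 74 to 247 estimated counts. All 3 TGF-β + TFA libraries lay below TGF-β 2 and 3, and TGF-β 1 lay among them. The log2 fold change of -0.61 was the furthest from 0 among the members (SE 0.38; interval -1.49 to 0.26), and it did not pass. Without TGF-β 1 it was -0.92 (edgeR unadjusted p = 0.0137), and without TGF-β 1 and TGF-β + TFA 3 together it was -0.76 (interval -1.36 to -0.16; edgeR unadjusted p = 0.0207, adjusted p = 0.8868, the lowest of its adjusted p-values over the alternatives). Without TGF-β 3 it was -0.35.

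NOTCH3, a receptor of vascular smooth muscle, pericytes and several carcinomas (ENSG00000074181, chromosome 19, 15159038 to 15200995, minus strand), had 0.388, 0.358 and 0.211 FPKM in TGF-β + TFA 1 to 3, against 0.182, 0.276 and 0.336 FPKM in TGF-β 1 to 3. TGF-β + TFA 1 and 2 lay above all TGF-β libraries and TGF-β + TFA 3 lay above TGF-β 1 alone. Its fitted value was 0.28 on the log2 scale (SE 0.29; interval -0.40 to 0.95). Leaving out 1 library at a time gave values from 0.06 (without TGF-β 1) to 0.44 (without TGF-β + TFA 3). The fibroblast and pericyte markers given above also summed to more in the TGF-β + TFA libraries, and their part in the NOTCH3 values was not tested.

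JAG1, a ligand that TGF-β is known to induce in other epithelial cells (ENSG00000101384, chromosome 20, 10637684 to 10673999, minus strand), made up 82.2%, 77.9% and 77.1% of the summed FPKM of JAG1, JAG2 and DLL1 in TGF-β + TFA 1 to 3, against 79.4%, 78.9% and 80.95% in TGF-β 1 to 3. Its level was 7.12, 6.99 and 4.16 FPKM in the TGF-β + TFA libraries, against 6.19, 5.77 and 7.89 FPKM in the TGF-β libraries. The groups overlapped, and the share was steadier than the level because JAG2 was also lowest in TGF-β + TFA 3. JAG1 had -0.11 as its log2 fold change (SE 0.19; interval -0.55 to 0.34), with the length trend removed -0.08 (interval -0.35 to 0.20), and without TGF-β + TFA 3 it was 0.05 (interval -0.28 to 0.38). JAG1 shares 79 exon bases with AL050403, a gene on the opposite strand, and whether the authors' counting used strand is not given.

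JAG2, the second Jagged ligand (ENSG00000184916, chromosome 14, 105140982 to 105168824, minus strand), had 1.498, 1.79 and 1.09 FPKM in TGF-β + TFA 1 to 3, against 1.49, 1.40 and 1.74 FPKM in TGF-β 1 to 3. Both the highest and the lowest library were TGF-β + TFA ones. Its log2 fold change of -0.06 had an SE of 0.17 and an interval of -0.46 to 0.34, and without TGF-β + TFA 3 it was 0.05. In GENCODE 29, JAG2 shares 469 exon bases with AL512356 on its own strand.

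DLL1, the Delta ligand that marks secretory progenitors in the mouse intestine (ENSG00000198719, chromosome 6, 170282206 to 170306565, minus strand), rested on few reads, at 13, 52 and 38 estimated counts in TGF-β + TFA 1 to 3 against 35, 41 and 33 in TGF-β 1 to 3. Its level was 0.0496, 0.193 and 0.145 FPKM in the TGF-β + TFA libraries, against 0.116, 0.144 and 0.121 FPKM in the TGF-β libraries. TGF-β + TFA 1 was the lowest of all 6 and TGF-β + TFA 2 the highest. Its log2 fold change came to 0.06 (SE 0.55), where an interval from -1.21 to 1.34 leaves changes of more than 1 log2 unit either way within the error. Without TGF-β + TFA 3 it was -0.11, without TGF-β + TFA 2 it was -0.28, and without TGF-β + TFA 1 it was 0.45.

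LFNG, the Fringe enzyme that adds sugars to Notch and favours Delta over Jagged ligands (ENSG00000106003, chromosome 7, 2512529 to 2528429, plus strand), was even across the TGF-β + TFA libraries at 0.627, 0.610 and 0.599 FPKM, against 0.252, 0.669 and 0.482 FPKM in TGF-β 1 to 3. Only TGF-β 2 lay above the TGF-β + TFA libraries, and TGF-β 1 was the lowest. LFNG had 0.41 as its log2 fold change (SE 0.36; interval -0.43 to 1.26), which was 0.10 without TGF-β 1. Without TGF-β 2 it was 0.78.

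**Figure D3:**
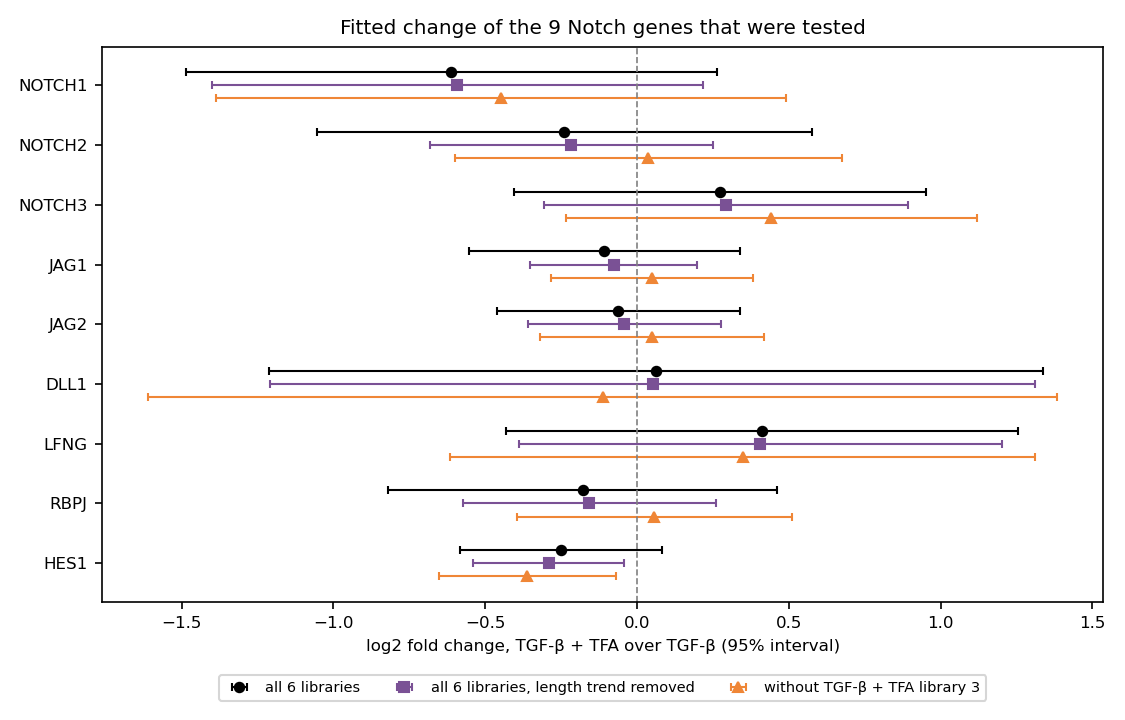
Fitted log2 fold change of TGF-β + TFA over TGF-β with its 95% interval (x axis) for the 9 tested Notch genes (rows), from all 6 libraries (black), with each library's trend along transcript length removed (purple) and without TGF-β + TFA 3 (orange). All black intervals hold 0, from NOTCH1 at -0.61 to LFNG at 0.41, and the purple and orange intervals of HES1, at -0.29 and -0.36, lie below 0.

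The rest of the pathway was read from lists by role, of 85 other genes, of which 70 were tested. None was called by edgeR (0 of 70), and 2 had an unadjusted p under 0.05, both lower, beside 0.761% of all tested genes on that side. These were BHLHE40 and GATA3, and GATA3 entered the test through the TGF-β libraries, where it was high. Groups did not overlap in CPM for 5 higher genes (NOTCH4, DLK1, DNER, DTX3 and POGLUT1) and 3 lower ones (BHLHE40, PSEN2 and APH1B), beside 4.58% and 3.33% of all tested genes. DNER, POGLUT1 and APH1B are outside the rule for named genes. DNER had 16, 16 and 12 estimated counts in TGF-β + TFA 1 to 3 against 0, 8 and 10 in TGF-β 1 to 3. It passed the filter on low counts, which asks for a minimum count in 3 libraries, only through the TGF-β + TFA libraries. NOTCH4, DLK1 and DTX3 each had a TGF-β library at 0, so the TGF-β libraries alone could not have passed them either. The separation of these genes and of DNER carries no weight. Over the 70 genes the median log2 fold change was -0.06, beside 0.01 over all genes. In the KEGG Notch term that the deposited table itself carries, 42 of 45 genes were tested, 0 were called, 0 had an unadjusted p under 0.05, and 13 were fitted above 0 and 29 below. Over all tested genes 9486 were fitted above 0 and 8779 below. The splits of the lists and of this term were not computed without TGF-β + TFA 3, in which long transcripts were low, or with the length trend removed. They are therefore not read as a change of the pathway.

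Other targets held both of the genes with an unadjusted p under 0.05 (12 of 14 tested, 0 called, 4 fitted above 0 and 8 below). BHLHE40, a repressor of the same wider family as HES1 that also answers to hypoxia and the circadian clock, had 2.10, 2.22 and 1.18 FPKM in TGF-β + TFA 1 to 3, against 2.33, 2.74 and 3.46 FPKM in TGF-β 1 to 3. All TGF-β + TFA libraries lay below all TGF-β libraries, and the log2 fold change was -0.63 (SE 0.23; interval -1.17 to -0.08), or -0.44 without TGF-β + TFA 3. It did not pass over all genes (edgeR unadjusted p = 0.0292, adjusted p = 0.9997). GATA3, a lineage factor and a Notch target in T cells, had 16, 8 and 0 estimated counts in the TGF-β + TFA libraries against 12, 53 and 95 in the TGF-β libraries, which overlap (log2 fold change -2.65, SE 1.12, edgeR unadjusted p = 0.0469, adjusted p = 0.9997). It is named because of its p and not by the rule for named genes. The TGF-β + TFA libraries alone could not have passed GATA3 through the filter on low counts, so its p carries no weight.

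Among the other targets closely tied to Notch in many tissues, NRARP and HES4 overlapped between the groups. NRARP, a feedback inhibitor of the Notch complex, had 4.43, 4.66 and 3.31 FPKM in TGF-β + TFA 1 to 3 against 3.48, 4.46 and 4.26 FPKM in TGF-β 1 to 3 (log2 fold change 0.04, SE 0.16). HES4, a close relative of HES1, had 6.80, 5.38 and 7.01 FPKM in the TGF-β + TFA libraries against 6.66, 6.75 and 7.16 FPKM in the TGF-β libraries (log2 fold change -0.06, SE 0.19). Both were chosen after their values were seen. The abundant listed targets, the cyclin gene CCND1 (-0.08, SE 0.14) and the progenitor factor SOX9 (-0.21, SE 0.23), had log2 fold changes smaller than their SE. Without TGF-β + TFA 3 the value of SOX9 was -0.0045 and that of CCND1 0.0297, and without TGF-β 3 that of SOX9 was -0.08. HEY2 had 0 to 21 estimated counts per library and HEYL 0 to 11, so all 3 HEY genes were close to the limit of detection.

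The genes of the secretory lineage, whose factor ATOH1 is repressed by HES1 in the gut, were mostly scarce (10 of 12 with a count in some library, 5 tested, 0 called). ATOH1, the lineage's master factor, had 4 estimated counts in TGF-β + TFA 2 and 0 in the other 5 libraries. TFF3, a goblet cell peptide, was present at 4.71, 3.86 and 6.66 FPKM in TGF-β + TFA 1 to 3 against 5.70, 7.11 and 5.50 FPKM in TGF-β 1 to 3 (log2 fold change -0.21, SE 0.28). That value rested on single libraries: it was -0.55 without TGF-β + TFA 3 (edgeR unadjusted p = 0.0289, adjusted p = 0.9992), -0.46 with length offsets and without that library, -0.06 without TGF-β 2 and -0.0235 without TGF-β + TFA 2. On the log2 scale, the fitted value of HES6, which opposes HES1 in other cells, was 0.16 (SE 0.24), and that of the ligand DLL4 was -0.46 (SE 0.63). None passed.

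The enzymes that cut the receptor included abundant genes (8 of 8 tested, 0 called, 2 fitted above 0 and 6 below). The gamma-secretase subunit genes APH1A, at 26.3, 24.8 and 21.7 FPKM in TGF-β + TFA 1 to 3 against 21.7, 23.8 and 25.2 FPKM in TGF-β 1 to 3, and PSENEN, at 16.8, 16.4 and 24.9 FPKM in the TGF-β + TFA libraries against 18.7, 20.7 and 16.0 FPKM in the TGF-β libraries, were the most abundant. Their log2 fold changes were 0.07 (SE 0.12) and 0.13 (SE 0.25). PSEN2, which encodes a catalytic presenilin, was at 2.47, 2.57 and 2.38 FPKM in the TGF-β + TFA libraries, below each of the TGF-β libraries at 2.79, 3.04 and 2.79 FPKM. Its log2 fold change of -0.18 (SE 0.14; interval -0.50 to 0.14) did not pass.

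**Figure D4:**
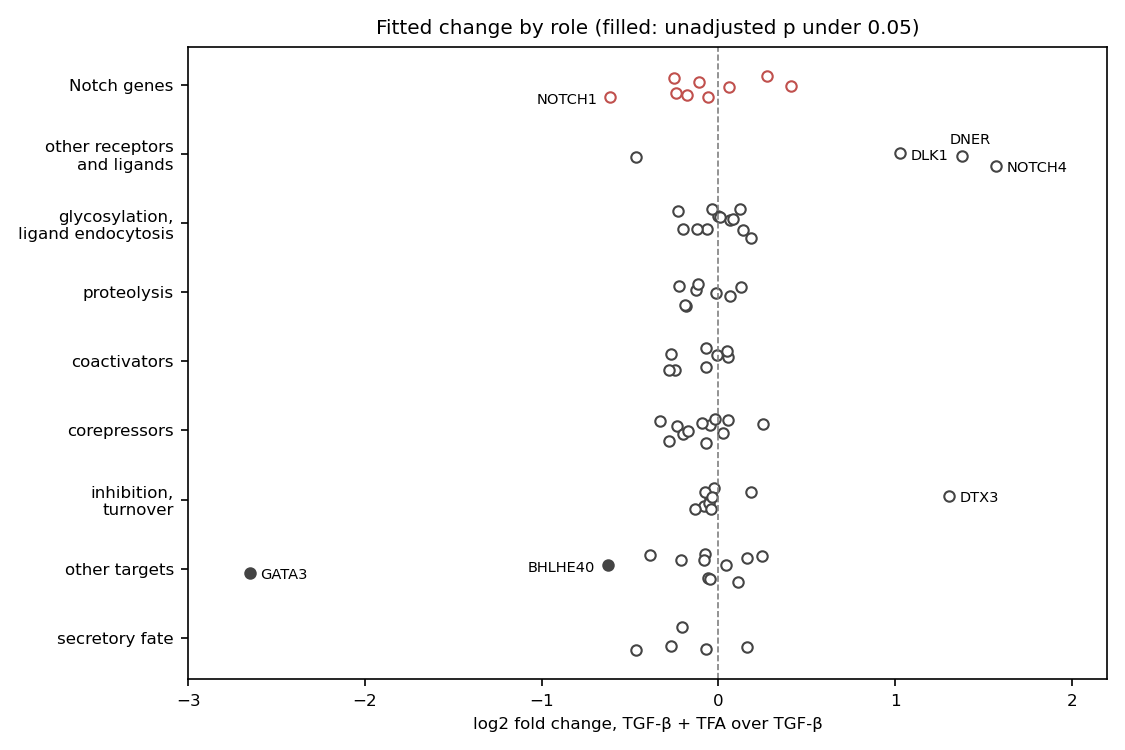
Fitted log2 fold change of TGF-β + TFA over TGF-β (x axis) for each tested gene, by role in the pathway (rows), with the 9 tested Notch members on top in red. Filled points had an unadjusted p under 0.05 in edgeR. Most genes lie close to 0, the exceptions with names are scarce genes or BHLHE40, and none was called after adjustment.

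Glycosylation and ligand uptake genes (12 of 14 tested, 0 called, 6 fitted above 0 and 6 below) included the xylosyltransferase GXYLT1 (0.01, SE 0.28), the protease FURIN that matures the receptor (-0.23, SE 0.23) and the endocytosis adaptor EPN1 (-0.20, SE 0.18). Coactivators (8 of 8 tested, 0 called, 2 above 0 and 6 below) were led by SNW1 (0.05, SE 0.13), which bridges the Notch complex to transcription, and the acetyltransferase KAT2A (-0.01, SE 0.16), and the lowest p was that of KAT2B (-0.28, SE 0.24). Corepressors (12 of 13 tested, 0 called, 3 above 0 and 9 below) were led by the deacetylase HDAC1 (-0.02, SE 0.13) and CIR1 (0.06, SE 0.13), which joins RBPJ to it, and the lowest p was that of TLE4 (0.25, SE 0.21), a partner of the HES repressors. All values in parentheses are log2 fold changes with their SE, and none of these genes passed. Several rested on single libraries. Without TGF-β + TFA 3, FURIN was at -0.0274, EPN1 at -0.10, KAT2B at -0.11 and TLE4 at 0.42 (edgeR unadjusted p = 0.0411, adjusted p = 0.9992), while without TGF-β + TFA 1 TLE4 was at 0.06.

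Inhibition and turnover genes (11 of 12 tested, 0 called, 2 above 0 and 9 below) were led by CCNC (0.18, SE 0.18) and CDK8 (-0.04, SE 0.12), a cyclin and its kinase that mark the intracellular domain for destruction. A few scarce genes had large fitted values with wide errors. The receptor NOTCH4, best known from endothelium, had 48, 48 and 61 estimated counts in TGF-β + TFA 1 to 3 against 28, 0 and 31 in TGF-β 1 to 3 (log2 fold change 1.57, SE 1.002). The ligand-like DLK1 had 91, 76 and 73 in the TGF-β + TFA libraries against 0, 59 and 68 in the TGF-β libraries (1.03, SE 1.04), and the ubiquitin ligase gene DTX3 had 43, 33 and 32 in the TGF-β + TFA libraries against 0, 28 and 19 in the TGF-β libraries (1.31, SE 1.03). In each of these every TGF-β + TFA count exceeded every TGF-β count, a single TGF-β library was at 0, and none passed (edgeR adjusted p = 0.9997). That library was TGF-β 2 for NOTCH4 and TGF-β 1 for DLK1 and DTX3. Without it the log2 fold changes were 0.99 for NOTCH4, 0.44 for DLK1 and 0.71 for DTX3. As said above, the separation of these genes carries no weight. The endothelial markers, whose sums are given above, were fitted above 0 for 5 of the 6 tested. Of that list VWF and KDR were at 0 in TGF-β 1, so the filter on low counts limits this direction as well. The part of endothelial markers in the NOTCH4 values was not tested.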

How the data were processed

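RNA of 6 DLD-1 libraries was read from the table the authors deposited, which gives a position for each gene and, for every library, FPKM and an estimated count. Per the labels' protocols, libraries were made from poly(A) RNA, kept strand by dUTP and carried molecular identifiers, and nothing says whether these were used. GRCh38 is the build in the submitters' processing notes, which also list StringTie 1.3.4d, HISAT2 2.0.4 and cutadapt 1.9. The deposited estimated counts are whole numbers that were probably derived from coverage, so totals overstate fragments. The deposited FPKM values are the authors' own and correct for length and library total. Depth ran from 60361756 to 68745953 estimated counts.

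The comparison used edgeR 4.0.16 (R 4.3.3) on the estimated counts: filterByExpr, TMM, a 2-sided quasi-likelihood test of group with no covariate, with Benjamini-Hochberg adjustment over 18265 genes and a call at an adjusted p under 0.05. Standard errors are the log2 fold change over the square root of F, and intervals are 95%. The script was tested on simulated data that held no length trends, so that test does not show how the fits behave with such trends. Alternatives used limma 3.58.1 on log2(FPKM + 0.5), with pseudocounts of 0.1 and 1, on genes with a mean of at least 0.5 FPKM, DESeq2 1.42.0, offsets along transcript length (lowess, span 0.3), counts divided by 4, a replicate block and left-out libraries. None of the 6 pairs of libraries within a group agreed within sampling noise (lowest chi-square per degree of freedom 3.44, at 4 counts a fragment). Exon lengths and shared sequence came from GENCODE 29, where 97.3% of the identifiers were found. The length offsets instead used the gene length implied by the deposited counts and FPKM, as a median over libraries.

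The members and lists were chosen with earlier results of these data known. Named beside the members were, per list, the 2 most abundant tested genes, the 1 with the lowest p and any called gene. Others are said to be chosen after their values were seen.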

Additional observations from a re-analysis of the deposited data

How the results depend on the processing

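No member and no other pathway gene was called by any alternative run, whichever the scaling, filter, test or left-out library (0 in each), and 0 to 2 members had an unadjusted p under 0.05 in any of them. The 9 tested members gave 144 values under 18 alternatives, of which 129 kept their direction and 15 turned it. The number of genes called over the whole table was 2 in the fit of the report, 15 by DESeq2, 1 with the replicate number as a block, 4 with length offsets and TGF-β + TFA 3 left out (chosen after seeing the data) and 1 to 3 when leaving out 1 library. Members whose groups do not overlap numbered 0 in the fit of the report, beside 7.91% of all tested genes. In FPKM with each pseudocount there was 1 (HES1), beside 6.9%. With length offsets there was 1 (HES1), beside 8.61%. Without TGF-β 1 and TGF-β + TFA 3, 2 libraries against 2, there were 3 (NOTCH1, NOTCH3 and HES1), beside 37.8%. With length offsets and without TGF-β + TFA 3 there were 2 (NOTCH3 and HES1), beside 19.4%. Leaving out 1 library gave 0 to 2, beside 14.1% to 19.9%. With fewer libraries the groups separate more easily. The members' median ran from -0.21 to 0.05 without 1 library.

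No value that changed sign had an unadjusted p under 0.05 (lowest 0.229). Without TGF-β 1 and TGF-β + TFA 3 these were APH1A (-0.00073), CCNC (-0.028), CIR1 (-0.063), DLL1 (-0.18), HES6 (-0.052), JAG2 (0.0105), KAT2A (0.041), KAT2B (0.0099), PSENEN (-0.21) and RBPJ (0.18). With length offsets and without TGF-β + TFA 3 they were CCNC (-0.039), CCND1 (0.016), CIR1 (-0.018), DLL1 (-0.11), JAG2 (0.0087), KAT2A (0.11), PSENEN (-0.11) and SOX9 (0.0028). In FPKM, GXYLT1 had -0.024, -0.028 and -0.0204 with pseudocounts of 0.5, 0.1 and 1. Without 1 library in turn the ranges were CCNC -0.0033 to 0.27, CCND1 -0.17 to 0.0297, CDK8 -0.10 to 0.000899, CIR1 -0.044 to 0.10, DLL1 -0.28 to 0.45, DLL4 -0.83 to 0.16, GXYLT1 -0.19 to 0.23, HDAC1 -0.10 to 0.016, HES6 -0.028 to 0.36, JAG1 -0.21 to 0.049, JAG2 -0.20 to 0.048, KAT2A -0.087 to 0.10, NOTCH2 -0.47 to 0.038, PSENEN -0.20 to 0.26, RBPJ -0.36 to 0.057 and SNW1 -0.034 to 0.12. The cause was not tested.

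Same-numbered libraries did not deviate together over all genes (correlations of 0.108, -0.326 and -0.335 for numbers 1, 2 and 3). The highest correlation was 0.457, between TGF-β + TFA 3 and TGF-β 2, whose length trends run the same way. The length trends enter these values, so they cannot tell whether same-numbered libraries share a culture or batch. With the replicate number as a block HES1 had -0.26 and DLL1 turned to -0.12, with no member called. Depth limits DLL1 and HEY1 most.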
